A study of Homo sapiens with 2 samples.

Results

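The miR-26 family was examined in small RNA libraries of MDA-MB-231-IV2-1 cells, a highly metastatic subline that had been isolated through an in vivo mouse model from MDA-MB-231, a human triple-negative breast cancer cell line. Members were every row whose name stem was hsa-miR-26a (also 26a-1 and 26a-2) or hsa-miR-26b, from either arm of the hairpin, and a product without a row was counted as 0. RefSeq holds 5 such mature products, and 2 of them, miR-26a-5p and miR-26b-5p, had a row in each library, among 376 miRNAs with N.C and 375 with the knockdown (425 in either). The remaining 3, miR-26a-1-3p, miR-26a-2-3p and miR-26b-3p, had no row in either library.

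To find miRNAs that depend on the long non-coding RNA LOC550643, the study compared cells transfected with a scrambled control siRNA (N.C) with cells transfected with a pool of LOC550643 siRNAs, with RNA taken 48 h after transfection. Each condition had 1 library, called N.C cells and knockdown cells from here on, so differences between them lack a replicate check and no p-values are given. One label field names the parental line and the titles name the IV2 subline. The level of LOC550643 in these RNA samples was not analysed here, so the knockdown was not checked in them. By real-time PCR, the study reports lower LOC550643 in this subline after transfection with the pooled siRNAs.

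MicroRNAs are short RNAs cut from hairpin precursors. One strand of the cut duplex is loaded into an Argonaute protein, which it guides to messenger RNAs by pairing through its seed, bases 2 to 8, and the other strand is mostly degraded. The miR-26 family is known for restraining proliferation in many tissues, and EZH2, the histone methyltransferase of Polycomb complex PRC2, is among its best known targets. Its genes lie in introns of the CTDSP genes, which encode small phosphatases that act on the carboxy-terminal domain of RNA polymerase II.

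The family has 3 hairpin genes on different chromosomes. In GRCh38, MIR26A1 lies at chr3:37969404-37969480 on the plus strand, in intron 5 of CTDSPL (transcript CTDSPL-201 of GENCODE 29). MIR26A2 lies at chr12:57824609-57824692 on the minus strand, in intron 5 of CTDSP2 (CTDSP2-201), and MIR26B at chr2:218402646-218402722 on the plus strand, in intron 4 of CTDSP1 (CTDSP1-201). Each hairpin has the strand of its host gene, and in every annotated host transcript that spans it (5 of CTDSPL, 6 of CTDSP2 and 11 of CTDSP1) it touches no exon. The precursors are printed 5′ to 3′ from RefSeq (GRCh38.p14), with both mature arms in capitals, because they show that the 5p arm of MIR26A1 and MIR26A2 is the same sequence while the 3p arms differ.
MIR26A1: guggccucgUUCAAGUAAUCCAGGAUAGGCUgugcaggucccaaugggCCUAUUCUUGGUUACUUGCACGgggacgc
MIR26A2: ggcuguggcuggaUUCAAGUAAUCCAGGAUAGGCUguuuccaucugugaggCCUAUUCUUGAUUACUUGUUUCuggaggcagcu
MIR26B: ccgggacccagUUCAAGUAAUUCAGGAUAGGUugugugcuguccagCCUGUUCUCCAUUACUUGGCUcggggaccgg

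The mature products were all matched to RefSeq (5 of 5). They are printed with the seed in capitals, since the seed groups them by the target sites they can read.
miR-26a-5p: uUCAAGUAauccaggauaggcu
miR-26b-5p: uUCAAGUAauucaggauaggu
miR-26a-1-3p: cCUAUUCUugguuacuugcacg
miR-26a-2-3p: cCUAUUCUugauuacuuguuuc
miR-26b-3p: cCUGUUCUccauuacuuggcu

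The 5p products share the seed UCAAGUA and their first 10 bases. Counted from 1 at the 5′ end of miR-26a-5p, the substitutions towards miR-26b-5p are C11U and C21U, and miR-26b-5p ends 1 base earlier (21 against 22 nt). Both 3p products of miR-26a share a seed with each other, and miR-26b-3p has another one. Since MIR26A1 and MIR26A2 give the same miR-26a-5p, the reads of miR-26a-5p cannot be divided between these genes, and only their 3p products could tell them apart.

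Among the 2370 mature miRNA names of the RefSeq table, 2 others carry the seed of miR-26a-5p. They are printed to show how far each resembles the family beyond the seed.
miR-1297: uUCAAGUAauucaggug
miR-4465: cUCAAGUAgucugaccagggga
The first 15 bases of miR-1297 equal those of miR-26b-5p, and the following bases differ as A16U and U17G, counted from the 5′ end of miR-26b-5p. Outside its seed, miR-4465 has little in common with the family, with 11 substitutions against miR-26a-5p. Neither had a row in either library. All reads listed under a name with this seed were therefore those of miR-26a-5p and miR-26b-5p. Whether the names used by the authors' tool included miR-1297 and miR-4465 is not given in the sources used here.

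The deposited values are RPM, reads scaled to a total of 1000000, that is, shares of the reads given to miRNAs. Low values form a ladder on which 1 read is worth 5.29 RPM in N.C cells and 2.03 RPM in knockdown cells, which places 189029 and 491535 reads on miRNAs. The knockdown library was thus the deeper one, and its values carry the smaller counting error. Intervals are 95% Clopper-Pearson intervals of the estimated reads, rounded to whole reads, and cover counting error only, not the variation between cultures. Because each mature miRNA is about as long as the next and a read covers it whole, RPM of different miRNAs were set side by side without division by length. How evenly the library chemistry captures different sequences was not measured.

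In both libraries miR-26a-5p was an abundant miRNA and miR-26b-5p a moderate one. The value of miR-26a-5p was 2818 RPM in N.C cells (interval 2586 to 3069 RPM, 533 reads) and 2377 RPM in knockdown cells (2242 to 2516 RPM, 1168 reads). It held rank 25 of 376 miRNAs in N.C cells and rank 29 of 375 in knockdown cells. The value of miR-26b-5p was 467 RPM in N.C cells (373 to 574 RPM, 88 reads) and 361 RPM in knockdown cells (311 to 419 RPM, 178 reads), at ranks 70 and 78. Within each library the intervals of the paralogs lay far apart, while between libraries, on the RPM scale as deposited, the intervals of miR-26a-5p did not overlap and those of miR-26b-5p did.

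**Figure D1:**
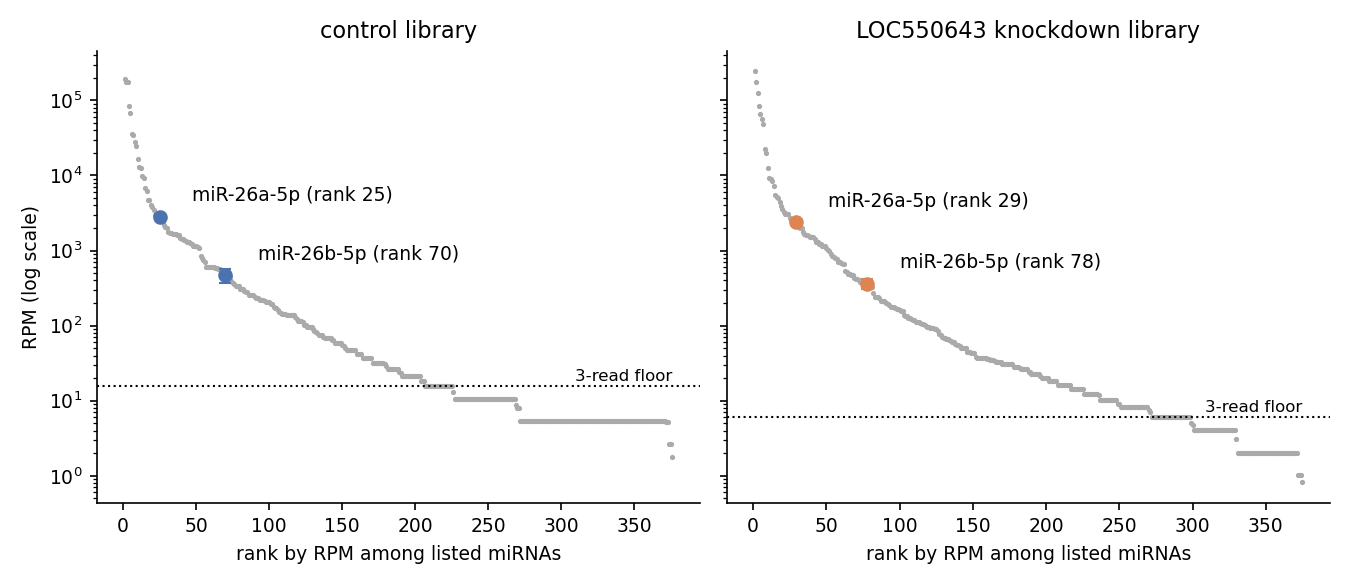
Level in RPM (log scale) against rank of every listed miRNA in N.C cells (left, 376 miRNAs) and the LOC550643 knockdown library (right, 375 miRNAs), 1 library each. Coloured points are miR-26a-5p and miR-26b-5p with 95% counting intervals, grey points all other miRNAs, and the dotted line is the value of 3 reads; miR-26a-5p sits at ranks 25 and 29 and miR-26b-5p at ranks 70 and 78, well above that line.

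The order of the closest miRNAs was mostly not resolved at this depth. In N.C cells the interval of miR-26a-5p overlapped those of miR-103a-3p above it (2832 RPM) and of miR-146a-5p below it (2664 RPM). In knockdown cells it overlapped that of miR-532-5p above it (2380 RPM) but not that of let-7b-5p below it (2102 RPM, interval 1975 to 2234 RPM). For miR-26b-5p the intervals of the neighbours overlapped in both libraries. These were miR-125a-5p (481 RPM) and miR-30e-5p (462 RPM) in N.C cells, and miR-218-5p (376 RPM) and miR-199a-3p (360 RPM) in knockdown cells.

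Together the main strands of the family held 3285 RPM in N.C cells (interval 3032 to 3554 RPM) and 2738 RPM in knockdown cells (2594 to 2888 RPM), or 0.329% and 0.274% of all miRNA reads. By comparison, the 5 main strands of the miR-30 family, taken as the 5p strands, summed to 24.9 times the miR-26 sum in N.C cells. In knockdown cells they summed to 27.8 times. For miR-30c, however, the 3p products had more reads than miR-30c-5p (319 against 237 in N.C cells, 1354 against 379 in knockdown cells). The 9 main strands of the let-7 family and miR-98 summed to 40.1 and 45.0 times the miR-26 sum. The family was thus a small part of the miRNA pool of these cells beside the miR-30 family and the let-7 family with miR-98. Those held 8.19% and 13.2% of the miRNA reads in N.C cells, and other families were not compared here.

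The paralog balance was nearly the same in both libraries. Of the main-strand reads, miR-26a-5p took 85.8% in N.C cells (interval 82.8 to 88.5%) and 86.8% in knockdown cells (84.9 to 88.5%). The rest, 14.2% and 13.2%, belonged to miR-26b-5p. The odds of miR-26a-5p over miR-26b-5p were 1.08 times as high in knockdown cells as in N.C cells, with an exact conditional interval of 0.813 to 1.44, so that a shift between the paralogs was not detectable and one within these bounds cannot be told from none. As a share within a library, this balance does not depend on the scaling between libraries.

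**Figure D2:**
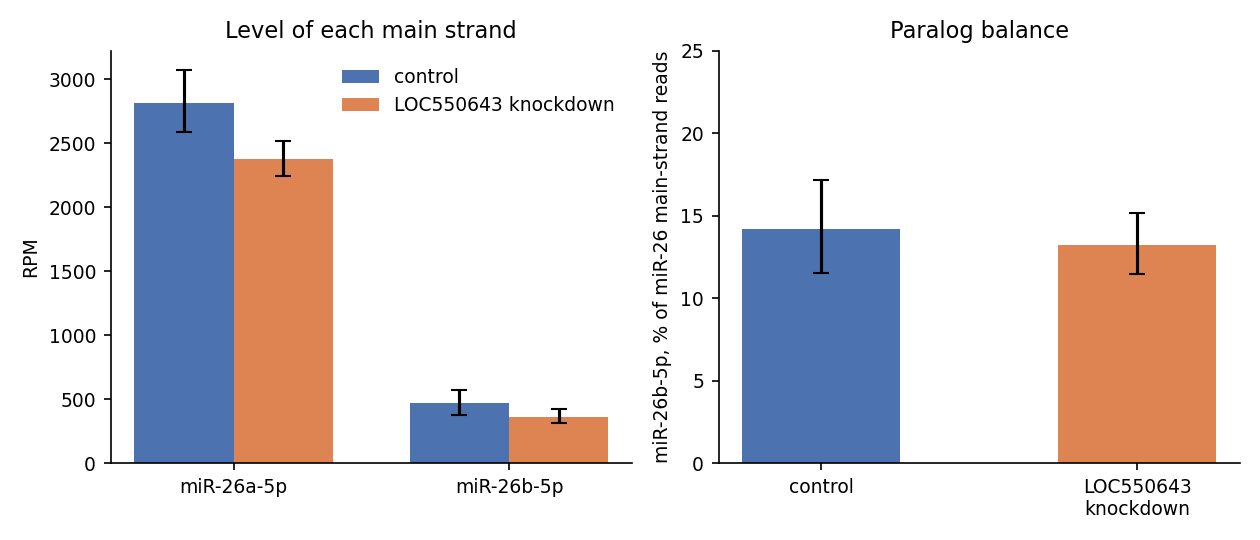
Left, RPM of miR-26a-5p and miR-26b-5p in the control (blue) and LOC550643 knockdown (orange) library; right, miR-26b-5p as a percentage of the main-strand reads of the family. Bars are single libraries and whiskers 95% Clopper-Pearson counting intervals; miR-26b-5p takes 14.2% and 13.2%, with overlapping whiskers.

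The split between the paralogs was not made of whole reads. The estimated reads of miR-26a-5p were 532.67 in N.C cells and 1168.33 in knockdown cells, and those of miR-26b-5p were 88.33 and 177.67. Their sums, 621.01 and 1346.00, lay within 0.01 read of a whole number. Such parts of a read were not usual, since 89.4% of the control values and 89.5% of the knockdown values up to 1000 reads lay within 0.1 read of a whole number. Similar pairs, picked after their values were seen, were miR-103a-3p with miR-107 (535.34 and 9.67 reads in N.C cells) and miR-146a-5p with miR-146b-5p (503.51 and 113.50 reads). The pair of miR-30d-5p and miR-30e-5p summed to 4372.00 reads in knockdown cells, but to 2474.19 reads in N.C cells, which is not a whole number. The source of the parts was not tested, and how many reads of the family were divided is not known, so the level of the family as a whole is firmer than the share of either paralog.

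No read of a minor strand was listed. Whether the miRNA names used by the authors' tool included miR-26a-1-3p, miR-26a-2-3p and miR-26b-3p is not given in the sources used here. If they did, 0 reads against 621 family reads in N.C cells allow a 3p share of up to 0.483% (3 reads), and 0 against 1346 in knockdown cells one of up to 0.223%. Taken by hairpin, the limits were 0.563% and 0.257% for miR-26a and 3.40% and 1.69% for miR-26b. For that reason the data do not say which of MIR26A1 and MIR26A2 gave the miR-26a-5p reads.

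Some other abundant miRNAs also had no listed minor-strand reads. Arms were compared for 216 hairpin sets, a set being the hairpins that share a mature name or a name stem in RefSeq or in the libraries, after leaving out sets listed under an older name without an arm. In 12 of them the other arm was named in neither source, and none of these 12 was among the sets compared here. Of the 23 other sets whose main strand had at least the reads of miR-26a-5p in N.C cells, 6 (26.1%) had none for the other strand, among them those of let-7i-5p, let-7g-5p and miR-182-5p. In knockdown cells this held for 3 of 26 sets (11.5%), the same 3 that were just named. Of the other sets at least as deep as miR-26b-5p, miR-26a included, 16 of 57 (28.1%) in N.C cells and 15 of 63 (23.8%) in knockdown cells had no read of the other strand. The median share of the other strand in the sets as deep as miR-26a-5p was 0.169% in N.C cells and 0.209% in knockdown cells, below the limits that 0 reads allow for miR-26a.

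**Figure D3:**
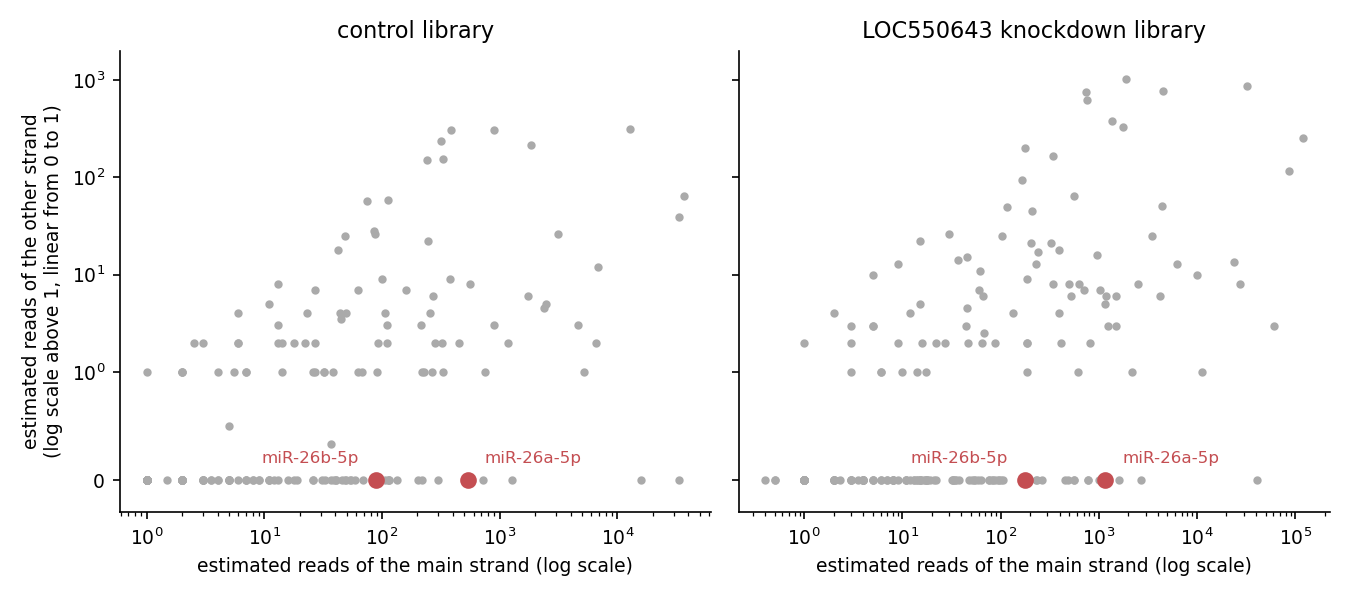
Estimated reads of the other strand against those of the main strand for 216 hairpin sets, in N.C cells (left) and the LOC550643 knockdown library (right), 1 library each; sets without main-strand reads in a library are not drawn there. The x axis is logarithmic and the y axis is linear from 0 to 1 and logarithmic above; the red points, miR-26a and miR-26b, lie at 0 beside other sets of similar depth.

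Neither paralog differed by 2-fold between the libraries. Scaled to the same total, miR-26a-5p had a log2 fold change (log2(RPM + 1), knockdown cells minus N.C cells) of -0.25 (interval -0.40 to -0.10), or 0.844 times the control value. The log2 fold change of miR-26b-5p was -0.37 (interval -0.74 to 0.02), or 0.774 times the control value. That of the family sum was -0.26 (interval -0.40 to -0.12). In knockdown cells 17.9% of all 425 miRNAs lay more than 2-fold above their N.C value and 27.3% more than 2-fold below it. Of the 2 listed members, 0 were in either group. Of the 124 miRNAs that averaged at least 100 RPM, as both members did, only 3 were higher and 7 lower by more than 2-fold. Staying within 2-fold was thus common at this level. The counting interval lay wholly below 0 for miR-26a-5p and not for miR-26b-5p. Among the 201 miRNAs that exceeded 3 reads in each library it lay below 0 for 24.9% and above 0 for 10.9%, so a value like that of miR-26a-5p was common.

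For miR-26a-5p and the family sum, but not for miR-26b-5p, the sign of the difference depended on the scaling between libraries. Under median-of-ratios size factors, which raise every log2 fold change by 0.20, miR-26a-5p was at -0.046 (interval -0.20 to 0.10) and miR-26b-5p at -0.17 (-0.54 to 0.22). With the 75th percentile of the listed miRNAs set equal, a rise of 0.29 for every miRNA, miR-26a-5p was at 0.048 (-0.10 to 0.20) and the family sum at 0.031 (-0.11 to 0.17), while miR-26b-5p was at -0.08 (-0.45 to 0.32). In neither of these scalings did an interval of the family lie on 1 side of 0. With the 5 most abundant miRNAs left out of the total, the values were -0.28 for miR-26a-5p (-0.43 to -0.13) and -0.40 for miR-26b-5p (-0.77 to -0.0087). No scaling brought a member near 2-fold, and the intervals place the ratio of the family sum between 0.757 and 0.918 under scaling to the same total, for counting error alone.

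**Figure D4:**
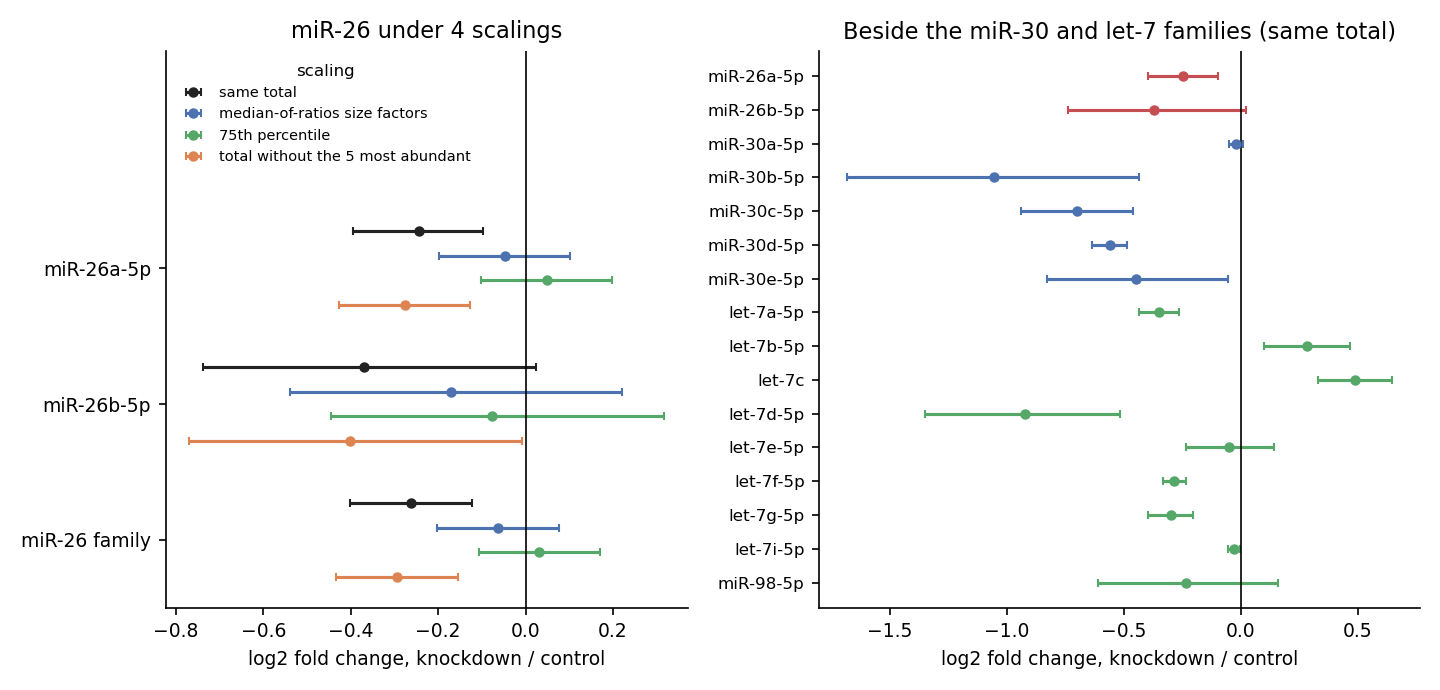
Left, log2 fold change (knockdown over control) of miR-26a-5p, miR-26b-5p and their sum under 4 scalings; right, the same for single main strands of the miR-26 (red), miR-30 (blue) and let-7 and miR-98 (green) families with libraries scaled to the same total. Points are single comparisons of 1 library with 1 library and whiskers are 95% counting intervals; the miR-26a-5p and family points turn from below to above 0 under the 75th-percentile scaling.

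Beside other miRNAs that averaged at least 100 RPM, the values of the family were near the middle. For the 124 miRNAs that averaged 100 RPM or more over both libraries, log2 fold changes had a median of -0.09 and quartiles of -0.45 and 0.24. Both paralogs lay between the lower quartile and the median, a position that no scaling changes. Of these 124 miRNAs, 50 had a lower log2 fold change than miR-26a-5p and 39 a lower one than miR-26b-5p.

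The miRNAs whose levels were most like those of the members were named by the smallest distance in the plane of log2(RPM + 1) in both libraries, among the 124. For miR-26a-5p they were miR-532-5p (distance 0.0645, from 2947 to 2380 RPM), miR-140-3p (0.231, 2402 RPM in both libraries) and miR-146a-5p (0.245, from 2664 to 2025 RPM). For miR-26b-5p they were miR-30e-5p (0.0948, from 462 to 339 RPM), miR-98-5p (0.0951, from 446 to 378 RPM) and miR-199a-3p (0.258, from 391 to 360 RPM). With 2 libraries, such likeness describes a pair of levels and nothing more.

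Members of other families spread more widely between the libraries than the miR-26 paralogs did. The log2 fold changes of miR-26a-5p and miR-26b-5p differed by 0.12, with overlapping intervals. In the miR-30 family they reached from -1.06 for miR-30b-5p (interval -1.69 to -0.43) to -0.02 for miR-30a-5p (-0.05 to 0.0097), and in the let-7 family and miR-98 from -0.92 for let-7d-5p (-1.35 to -0.52) to 0.49 for let-7c (0.33 to 0.65). The outermost intervals of those families did not overlap. Part reads also occurred there, as for let-7d-5p (85.5 reads in N.C cells) and let-7c (1501.3 reads in knockdown cells). How many let-7 reads were divided is not known. Those families have 5 and 9 main strands against 2 here, and the ranges were not compared at equal number. The log2 fold changes given for miR-30a-5p and miR-26a-5p take the opposite sign under the 75th-percentile scaling, but the distances between miRNAs do not change with the scaling.

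Other miRNAs directed at EZH2 showed no common direction when libraries were scaled to the same total. From a list of 8 outside the family, 7 were listed and all 7 had more than 3 reads in both libraries. Their median log2 fold change was 0.09, against -0.20 for all 425 miRNAs and -0.09 for the 124 that averaged at least 100 RPM. In knockdown cells 4 of the list were higher and 3 lower, where 180 of all 425 were higher and 245 lower. Of the 124, 49 were higher and 75 lower. The counting interval lay above 0 for let-7b-5p (from 1729 to 2102 RPM, log2 fold change 0.28) and for let-7c (from 2179 to 3054 RPM, 0.49). It lay below 0 for let-7a-5p (from 9118 to 7154 RPM, -0.35). That is 2 of 7 above and 1 of 7 below 0, beside 10.9% and 24.9% of the 201 miRNAs that exceeded 3 reads in each library. The shares over the 201 turned to 22.9% above and 16.9% below under median-of-ratios size factors. With the 75th percentile set equal they were 25.4% and 11.4%. Interval counts of the list are given under the same total only. The members called are all let-7 members, whose values include part reads and are also in the let-7 list. The value of miR-101-3p, the best known EZH2-directed miRNA, was 1074 RPM in N.C cells and 1145 RPM in knockdown cells (0.09, interval -0.14 to 0.33). Its level was thus below that of miR-26a-5p and above that of miR-26b-5p in both libraries. The summed value of the list went from 14731 to 14025 RPM, with the log2 fold change at -0.07 under the same total and above 0 under the median-of-ratios scaling. Under the 75th-percentile scaling miR-98-5p and miR-138-5p were above 0 as well, which leaves let-7a-5p as the only listed member below 0.

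No seed match of the family was found in LOC550643. The isoforms came from the study's supplement. They had 718 (V1), 581 (V2) and 476 (V3) bases and were searched on the transcript strand for the reverse complement of bases 2 to 7 and of bases 2 to 8 of each member. For miR-26a-5p and miR-26b-5p these were ACTTGA and TACTTGA, the first contained in the second. For comparison, 13.8% of the first 718 bases of the 116724 GENCODE 29 transcripts of at least that length hold ACTTGA, and 2.62% hold TACTTGA. The matches of the 3p products, GAATAG and AGAATAG for miR-26a-1-3p and miR-26a-2-3p (6.82% and 2.47% of the windows) and GAACAG and AGAACAG for miR-26b-3p (22.9% and 8.51%), were absent as well. This says only that these letters are not in the isoforms.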

How the data were processed

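Total RNA of MDA-MB-231-IV2-1 cells was extracted with TRIZOL 48 h after siRNA transfection, and 1 small RNA library per condition was sequenced on a MiSeq. The study names the NEBNext small RNA kit, whereas the labels describe Illumina protocols. The authors deposited a table of RPM values per mature miRNA for each library, and the submitters' processing notes list FastQC, cutadapt and hg38. The aligner settings, the miRNA release, the strand setting and the treatment of reads that match several miRNAs are not given in the sources used here.

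From the deposited RPM, the value of 1 read was estimated from the spacing of low values. Because 38 of 360 control values and 36 of 344 knockdown values up to 1000 reads were not within 0.1 read of a whole number, no count test was run. Absent miRNAs were set to 0, libraries were brought to the same total, and log2(RPM + 1) differences were computed. Because of the pseudocount of 1 RPM, fold changes of low miRNAs are understated. Intervals are 95% Clopper-Pearson intervals on rounded estimated reads, and the limit for 0 reads is 3 reads. The read estimate and the intervals were tested on simulated libraries of whole reads. These held no part reads and no variation beyond counting, so the test does not cover intervals of values with part reads, such as those of both main strands. PCR copies were not separable, so intervals cover counting error only.

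Named were all family products, miRNAs sharing their seed, the 3 nearest miRNAs and the rank neighbours of each main strand, and the members of 3 lists (EZH2-directed, miR-30, and let-7 with miR-98). A further list is not reported here. The members and the lists were chosen with earlier results of these data known. Sequences and hairpin positions came from RefSeq (GRCh38.p14) and introns from GENCODE 29. Other scalings, pseudocounts, filters and fold thresholds were tried. Python 3.11.15, numpy 2.4.6, scipy 1.17.1 and matplotlib 3.10.9 were used.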

Additional observations from a re-analysis of the deposited data

How the results depend on the processing

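The log2 fold change of miR-26a-5p moved from -0.25 to -0.046 under median-of-ratios size factors and turned to 0.048 under scaling to the 75th percentile. That of the family sum moved from -0.26 to -0.064 and turned to 0.031 under the same scalings. By construction, each scaling shifts all miRNAs alike. For miR-26b-5p the value stayed negative under every alternative run and moved by less than its counting interval, which is wide. That interval included 0 under the same total, under median-of-ratios size factors and under the 75th percentile. The miR-26a-5p share was rerun only on whole reads (85.78% to 85.83% in N.C cells, 86.8% to 86.78% in knockdown cells). That rerun does not check the divided reads. The ranks were the same among miRNAs listed in both libraries, and the minor-strand share was 0 throughout. These reruns left little room for change and are no check of robustness.

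In knockdown cells 76 of 425 miRNAs were over 2-fold above and 116 over 2-fold below their N.C value. These counts became 34 and 51 when either library had to reach 10 RPM, and 3 and 7 of 124 when the mean had to reach 100 RPM. They were 28 and 66 when both libraries had to be above 0, and 19 and 25 with a pseudocount of 10 RPM. Fewer miRNAs are tested under the filters. Under median-of-ratios size factors they were 83 and 90. Neither listed member was among them in any of these settings.

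No paired analysis was possible because only 1 library was made per condition. Leaving out a library in turn was not run for the same reason. The minor strands, at 0 in both libraries, gave no fold change under any setting. At 533 and 88 reads in N.C cells, the control depth limits the precision of both main strands.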
